A study of Mus musculus with 11 samples.

Results

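The proximal tubule takes back filtered protein through a pair of large receptors, megalin (Lrp2) and cubilin (Cubn), and the genes described here are those receptors and the proteins that serve them: Lrp2, Cubn, Amn, Dab2, Clcn5, Pdzk1 and Lrpap1. They were taken by their symbols, which makes 7 of the 28692 genes counted in mouse kidney single-cell libraries, and each of the 7 symbols was found once. The study compared kidneys after unilateral ischemia-reperfusion (UIR) or unilateral ureteral obstruction (UUO) with kidneys of unoperated mice, and asked which cell states persist in long-term fibrosis. All animals were male C57Bl/6 mice with no transgene. For UIR the left renal pedicle of 10-week-old mice was clamped for 30 minutes at 37 °C, and for UUO the left ureter was tied off for good. Injured kidneys were taken on day 28 after surgery, 3 libraries for each injury, and 5 control libraries came from naive mice of the same strain, sex and age.

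Megalin is a very large receptor of the LDL receptor family, while cubilin has no membrane span of its own and depends on the small membrane protein amnionless (Amn) to reach the apical surface. Albumin, vitamin-binding proteins and many hormones bind them in the lumen, are drawn into clathrin-coated pits through the adaptor Dab2, and are released once the endosome is acidified, a step that needs the chloride/proton exchanger ClC-5 (Clcn5). The chaperone RAP (Lrpap1) guards the receptors in the endoplasmic reticulum, and the scaffold Pdzk1 holds transporters in the brush border where the receptors work.

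On GRCm38 the receptor genes both lie on chromosome 2, Lrp2 at chr2:69424340-69586065 and Cubn at chr2:13276338-13491813, on the minus strand, and span 161.7 and 215.5 kb. Amn is a compact gene of 5.3 kb at chr12:111271095-111276426. Dab2 lies at chr15:6299788-6440712 and Pdzk1 at chr3:96829284-96870926 on the plus strand, and Lrpap1 at chr5:35091501-35105766 on the minus strand. Clcn5 covers 165.5 kb of chromosome X, at chrX:7153810-7319358 on the minus strand. The windows directly upstream of Lrp2 and Cubn are printed because both receptors are restricted to the same cells, and the pair for Clcn5 because this gene had the highest rise, in other cells. The sequences are from RefSeq on GRCm38.p6, given 5′ to 3′ on the gene's strand and cut to bases outside annotated exons. Capitals mark the string TATAAA.
Lrp2, chr2:69586066-69586279, 214 bases: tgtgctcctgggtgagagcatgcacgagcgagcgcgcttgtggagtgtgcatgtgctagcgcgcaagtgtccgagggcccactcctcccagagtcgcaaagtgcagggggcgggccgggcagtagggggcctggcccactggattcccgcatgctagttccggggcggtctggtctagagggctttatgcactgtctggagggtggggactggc
Cubn, chr2:13491877-13492126, 250 bases: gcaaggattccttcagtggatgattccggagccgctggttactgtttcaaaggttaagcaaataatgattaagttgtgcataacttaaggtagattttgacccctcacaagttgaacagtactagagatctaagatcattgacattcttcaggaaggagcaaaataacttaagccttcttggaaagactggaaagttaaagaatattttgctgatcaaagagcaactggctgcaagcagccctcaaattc
Clcn5, upstream start, chrX:7319359-7319608, 250 bases: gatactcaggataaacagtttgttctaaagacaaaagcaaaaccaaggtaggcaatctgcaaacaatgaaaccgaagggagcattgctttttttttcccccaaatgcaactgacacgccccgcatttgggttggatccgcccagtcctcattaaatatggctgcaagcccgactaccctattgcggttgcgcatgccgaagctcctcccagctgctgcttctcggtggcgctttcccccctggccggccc
Clcn5, downstream start, chrX:7188715-7188964, 250 bases: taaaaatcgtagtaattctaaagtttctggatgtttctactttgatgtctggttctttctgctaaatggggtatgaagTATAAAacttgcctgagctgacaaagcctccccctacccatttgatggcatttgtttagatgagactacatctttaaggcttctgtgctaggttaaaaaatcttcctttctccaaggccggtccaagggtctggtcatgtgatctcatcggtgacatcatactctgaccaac
The receptor windows differ in base composition. Over 300 bases around the start, Lrp2 has a GC content of 65.0% with 20 CpG dinucleotides and Cubn one of 44.33% with 5, beside medians of 52.67% and 7 over 32851 promoters. The Clcn5 windows differ in the same way, with 56.0% and 19 CpG at the upstream start and 43.33% and 6 at the downstream start. In a search of both strands, TATAAA was found once, 172 bases before the downstream Clcn5 start, and 13.616% of all promoters hold it. An HNF1-type site (GTTAAT, in 7.099% of promoters) was found in a Dab2 window, and an HNF4 site (CAAAGTCCA, in 0.475%) in a Pdzk1 window. Neither was found in the Lrp2 or Cubn windows, and a forkhead site (TGTTTAC, in 3.65%) was found in no member's.

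Libraries held 49503312 to 117043590 UMIs, counting empty droplets, and 40573 cells were kept. Of the barcodes called as cells, 56.9% to 79.0% in controls, 23.8% to 37.4% in UIR but 3.15% to 8.004% in UUO had over 30% mitochondrial UMIs and were left out. Clusters named from markers as proximal tubule (PT) held 66.2% to 70.4% of control cells, 10.8% to 17.0% of UIR cells and 0.587% to 2.53% of UUO cells. The PT marker sum was high in all PT pools, at 33413 to 55487 UMIs per 1e6 (counts per 1e6, CPM) in controls, 56579.6 to 64531 after UIR and 25624 to 57402 after UUO. UUO therefore rests on 41, 31 and 96 PT cells, with 45427, 140553 and 500508 UMIs, against 7396498 to 12004301 UMIs in a control pool. Control replicate 1 stood apart in its empty droplets, described below, and values without it are given beside the Lrp2 results it touches. Labels place the controls in 3 naming series and give no batch for the injured kidneys, so batch and injury cannot be told apart.

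In control kidneys both receptors were far higher in PT than in any other named class with 4 or 5 pools. Cells in unnamed clusters, 32 to 71 in a control library, are left out of the next values; they had Lrp2 at 248.8 to 479 CPM, Cubn at 8.37 to 44.2, Amn at 0 to 71.3 and Pdzk1 at 62.8 to 165. Lrp2, the receptor megalin, stood at 1778, 1529.5, 1382, 1420.1 and 1672 CPM in the 5 control PT pools. The next highest of these, macrophages, had a mean of 47.5 CPM, and the others, from lymphocytes to distal tubule, lay between 26.8 and 39.98, with ranges that overlapped each other. Without control replicate 1 the macrophage mean was 37.6 CPM and the other means ran from 16.6 in intercalated cells to 29.1 in principal cells, with endothelium at 22.9 and lymphocytes at 24.5. Cubn had 174 to 217 CPM in PT and at most 13.7 CPM in any control pool of a named class other than PT and the failed-repair class. Amn had 110.3 to 147 CPM in PT and at most 21.3 in other named classes, the failed-repair class again set aside, and Pdzk1 had 479 to 556 CPM in PT against at most 34.8. PT was thus first for all 4 of these genes. For Pdzk1 the classes after PT rest on few UMIs. Macrophages at 15.99 to 34.8 CPM (3 to 10 UMIs a pool) and loop of Henle at 10.6 to 25.4 (4 to 10) lay above intercalated cells at 0 to 10.4 (0 to 5). Subtraction of empty-droplet RNA, described below, removed 71.4% of these UMIs in loop of Henle and 83.3% in intercalated cells.

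The other 3 members were not limited to PT. Dab2 had 476 ± 44.8 CPM in PT (SD, n = 5), 341 ± 79.9 in macrophages and 304 ± 37.6 in intercalated cells of the collecting duct, and the last pair overlapped. Endothelium and podocytes followed at 146 ± 20.9 and 125 ± 27.1, also overlapping. Loop of Henle and distal tubule had 11.8 ± 5.68 and 9.44 ± 5.07, and lymphocytes had 2 UMIs in 4 pools, a mean of 4.54 CPM. Lrpap1 was found in every class, from 359 ± 33.5 CPM in PT to 59.8 ± 16.03 in lymphocytes. Clcn5 was highest outside PT: intercalated cells had 223 ± 77.5 CPM, PT, loop of Henle and distal tubule had 62.8 ± 8.47, 62.2 ± 5.36 and 52.1 ± 9.36, which overlapped, and principal cells had 30.7 ± 7.40.

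**Figure D1:**
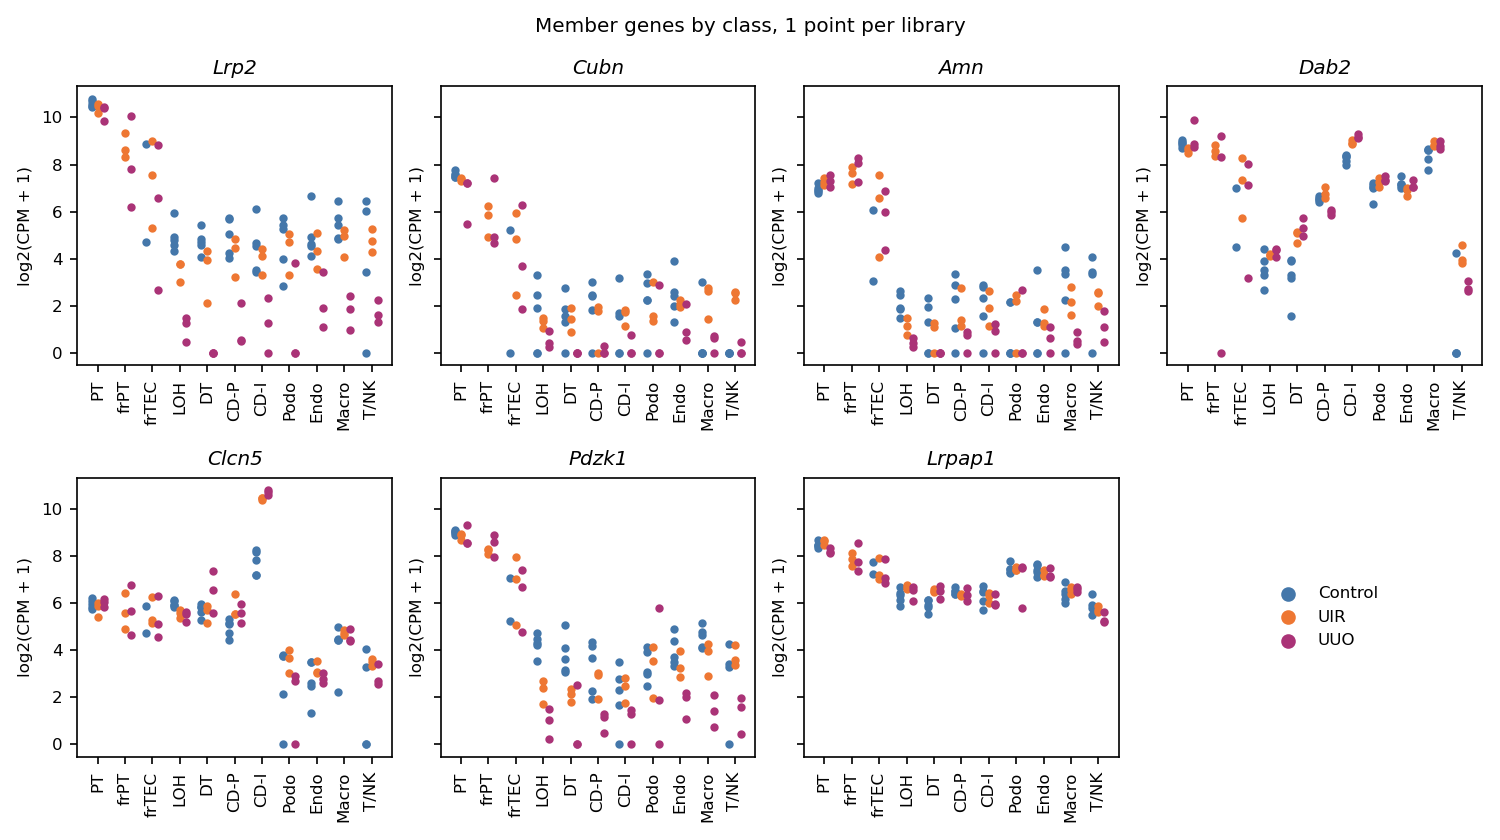
Level of each member gene as log2(CPM + 1) (vertical axis) in 11 cell classes (horizontal axis), 1 point per library, colored by group. Lrp2, Cubn, Amn and Pdzk1 are high in proximal tubule (PT). In the failed-repair PT-like cells (frPT) Lrp2 is lower than in PT in all 6 injured libraries. Cubn and Pdzk1 are lower there in 5 of 6 and Amn in 2 of 6. Lrpap1 is present everywhere, and Clcn5 rises in intercalated cells (CD-I) from at most 307 CPM in controls to at least 1316 CPM in UIR and UUO.

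PT sub-clusters named by segment markers differed in these genes, although none of them was used to form the clusters. Dab2 had 731 to 845 CPM in S1-like cells, the first segment, 277 to 386 in S2-like cells and 163 to 234 in the S3-like cells of the straight part. Cubn had the same order, from 221 to 259.5 through 159.6 to 203 to 104 to 146 CPM. Lrp2 had 1508 to 1890.2 CPM in S1-like and 1461 to 1899 in S2-like cells, which overlapped, and 769.6 to 1071 in S3-like cells, below both in every control library. The chaperone ran the other way, with Lrpap1 at 219 to 273 CPM in S1-like, 406 to 452 in S2-like and 368 to 615 in S3-like cells. Clcn5 was lowest in S3-like cells, at 24.8 to 36.4 CPM against 69.3 to 89.5 in S1-like cells. These values sum the UMIs of all cells of a segment, and deep cells weigh most in them. Control sub-clusters of 1 segment differed among themselves: Cubn ran from 70.3 CPM, in the S1-like sub-cluster with a median of 928 UMIs, to 306 in the one with a median of 11837, against 140 and 194 in the S2-like and 64.1 to 194 in the S3-like ones. Of the 7 members, only for Dab2 did every S1-like sub-cluster, at 614 to 841 CPM, lie above those of S2 (269 and 367) and S3 (116 to 405). These are descriptions over clusters of the same libraries, with no test.

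The first comparison asked whether PT cells that remained after injury kept their receptors. In UIR the Lrp2 pools had 1169.9, 1516 and 1452 CPM and in UUO 925, 1359 and 1395. The control and UIR ranges overlapped, and in UUO only the third library reached the lowest control. The fitted change was -0.13 on the log2 scale (SE 0.18, adjusted p = 0.70) in UIR and -0.52 (SE 0.20, adjusted p = 0.16) in UUO. The 95% interval of the ratio to control was 0.711 to 1.17 in UIR and 0.531 to 0.911 in UUO. By segment, with no test, UIR had 1082, 1699 and 1091 CPM in S1-like cells, against 1508 to 1890.2 in controls. S2-like and S3-like cells overlapped controls, at 1362 to 1838 against 1461 to 1899 and 872 to 1204 against 769.6 to 1071.

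Cubn had 157, 166 and 169.8 CPM in UIR and 44.0, 149 and 148 in UUO. Every injured library lay below the lowest control, 174, and the lowest of them was the UUO library with 41 PT cells, whose value comes from 2 UMIs. S1-like cells, highest in Cubn, were 203 of 643, 175 of 1268 and 130 of 594 UIR PT cells, and 500 of 1306 to 914 of 1707 in controls. UIR had 178, 223 and 141 CPM in S1-like cells, against 221 to 259.5. In S2-like and S3-like cells it overlapped controls, at 168 to 201 against 159.6 to 203 and 107 to 166 against 104 to 146. The part of this mix was not tested. Over all PT the fitted changes were -0.17 (SE 0.13, adjusted p = 0.46) and -0.63 (SE 0.20, adjusted p = 0.082), so neither passed the threshold of an adjusted p of 0.05. Amn, which carries cubilin to the surface, went the other way, with 154, 172 and 141 CPM in UIR and 132, 185 and 156 in UUO. In UIR 2 libraries lay above the highest control, 147, and the third inside the control range, and Amn was called higher by edgeR (0.38, SE 0.12, adjusted p = 0.046). In S1-like cells alone, a choice made after the data had been seen, the UIR change was -0.10. In the other segments every UIR library lay above every control, with no test. S2-like cells had 158 to 178 against 110.3 to 139 CPM, and S3-like cells 189 to 229 against 76.7 to 161. With empty-droplet RNA subtracted the UIR change over all PT stayed called by edgeR (0.47, adjusted p = 0.039). In UUO the change of 0.20 (SE 0.19, adjusted p = 0.68) did not pass.

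Of the 7 members, 1 was called higher and 0 lower in UIR PT, where 13.9% of all 11341 genes tested were called, with 8.33% higher and 5.61% lower. In UUO PT 0 were called higher and 1 lower, where 4.49% of genes were called, with 2.8% higher and 1.69% lower. The median change over the members was -0.15 in UIR and -0.49 in UUO, and over all genes tested it was -0.0024 and -0.093. Between the injuries 0 members were called, with 0.097% of genes called, and 3 had an unadjusted p under 0.05.

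Pdzk1, the brush border scaffold, was the call in UUO, at -0.55 (SE 0.15, adjusted p = 0.035). Its CPM were 638, 377 and 374, so the first library stood above every control and the others below. Scaled to library totals in place of TMM, which estimates the scale from most genes, the change was -0.32 (adjusted p = 0.31). In UIR Pdzk1 had 489, 405 and 475 CPM, a change of -0.15 (SE 0.12, adjusted p = 0.45). By segment, with no test, S3-like cells had 398, 341 and 388 CPM in UIR, all below the controls at 452 to 549. S1-like and S2-like cells overlapped controls, at 621 to 709 against 621 to 696 and 380 to 441 against 405 to 464. Leaving out single libraries ended both calls in most cases: that of Amn held only without control replicate 5 or UUO replicate 1, and that of Pdzk1 only without UIR replicate 1 or 2 or UUO replicate 1.

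The remaining members did not pass in either injury. Dab2, the clathrin adaptor, had 395, 360.0 and 411 CPM in UIR, all below the lowest control, 417, and 947, 462 and 434 in UUO, with a change of -0.26 (SE 0.13, adjusted p = 0.20) and -0.096 (SE 0.15, adjusted p = 0.83). The UUO change was negative although the first UUO library lay above every control and the other two inside the control range in CPM, which are scaled to library totals and not by TMM. Within S1-like cells Dab2 had 689 to 752 CPM in UIR, which overlapped the control range. Lrpap1 had 399, 409 and 354 CPM in UIR, inside the control range, and 286, 327 and 278 in UUO, of which 1 lay inside it. Its change in UUO was -0.49 (SE 0.17, adjusted p = 0.11). Clcn5 stayed within 41.6 to 71.1 CPM in the injured PT pools, against 53.3 to 74.4 in controls. Macrophage RNA moved with injury in these pools: the sum of 5 macrophage markers was 5.95 to 9.98 CPM in controls, 75.9 to 122 after UIR and 75.9 to 726 after UUO. Its part in the values was not tested. The PT sub-cluster highest in those markers held 37 control, 917 UIR and 82 UUO cells. Without it Amn in UIR changed by 0.42 (adjusted p = 0.077) and Pdzk1 in UUO by -0.69 (adjusted p = 0.055), so neither call was kept although neither change was smaller. The UUO pools then held only 17, 12 and 57 cells, with a minimum of 10 a pool.

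**Figure D2:**
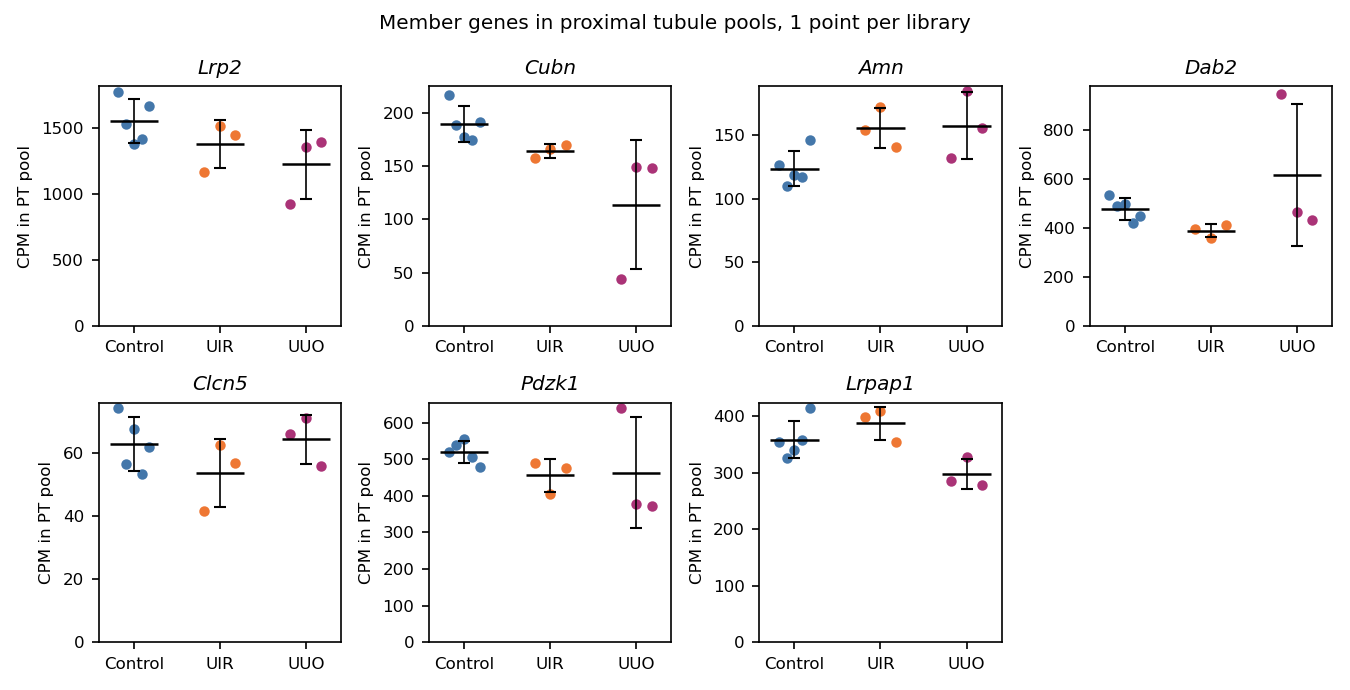
CPM of each member gene (vertical axis) in the PT pools of the 3 groups (horizontal axis), 1 point per library, with the mean as a horizontal line and the SD as an error bar. The injured libraries lie within or near the control range for most genes; Cubn in the first UUO library, 44.0 CPM, rests on 2 UMIs, and 2 of 3 UIR libraries lie above all controls for Amn.

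The share of PT cells with a receptor UMI gives the same measurement per cell. With each cell thinned to 1000 UMIs, Lrp2 was found in 61.3% ± 4.61 of control PT cells (SD, n = 5), 57.8% ± 5.49 in UIR and 52.8% ± 7.66 in UUO (n = 3 each). By an exact permutation test over libraries, two-sided, the difference from control had p = 0.39 in UIR and p = 0.071 in UUO. Cubn was found in 13.9% ± 1.38, 12.6% ± 1.46 and 8.15% ± 3.41 of PT cells, with exact permutation p = 0.25 in UIR and p = 0.036 in UUO, the smallest that 5 against 3 libraries allow. Only 89 UUO PT cells were deep enough, 79 were left out, and with cells of up to 50% mitochondrial UMIs the UUO difference shrank from -5.77 to -1.32 percentage points (exact permutation p = 0.57). Unthinned, the Lrp2 shares were 73.7%, 61.6% and 51.2% and the Cubn shares 41.6%, 27.3% and 16.7%. In lymphocytes, which should lack megalin, the thinned Lrp2 shares were 3.54%, 2.69% and 0.276%, well under those of PT. Median depth was 1794 to 4814 UMIs in control PT cells, 1369 to 1875 in UIR and 789 to 1695 in UUO, and 3010 to 5417 in lymphocytes.

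Over all kept cells, the part of each gene's UMIs that lay in PT fell with the number of PT cells caught. PT cells held 98.3% ± 0.759 of the Lrp2 UMIs of all kept cells in controls, 80.3% ± 6.63 in UIR and 54.2% ± 14.8 in UUO, and the groups did not overlap (exact permutation p = 0.036 each, the smallest possible). The class named from failed-repair markers, described below, held 9.51% ± 9.03 of Lrp2 UMIs in UIR and 13.2% ± 8.52 in UUO. For Dab2 the PT share went from 88.3% ± 1.15 to 22.6% ± 4.598 and 2.02% ± 1.40, and in UUO macrophages held 51.5% ± 5.25 of its UMIs. For Clcn5 it went from 72.3% ± 5.42 to 5.59% ± 3.49 and 0.466% ± 0.365, while intercalated cells went from 14.5% ± 7.54 to 66.7% ± 9.77 and 69.6% ± 8.36. The shares for Dab2 and Clcn5 are given without a test. In a dissociated kidney, loss of PT cells in the animal and loss during preparation cannot be told apart. The mitochondrial limit took out 3606 to 8029 barcodes in controls and 153 to 363 in UUO, and at a limit of 50% PT held 2227 to 3602 cells in controls but 50, 65 and 142 in UUO.

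The class named from failed-repair markers was made of 2 sub-clusters, of which 1 was nearer to failed-repair PT markers and the other to markers of the thin limb. The first, called PT-like here, held 29, 277 and 62 UIR cells and 10, 25 and 15 UUO cells, and 0 to 4 cells in a control library. Its PT marker sum was 2981 to 9803 CPM, far under that of PT. Failed-repair markers summed to 1636 to 2516 CPM in its UIR pools and 279 to 1886 in its UUO pools. The same sum was 61.5 to 78.3 CPM in UIR PT, 107 to 352 in UUO PT and 377 to 496 in injured loop of Henle. The lowest UUO PT-like pool thus lay inside the range of UUO PT and below injured loop of Henle. In the thin limb-like sub-cluster Lrp2 was at 23.1 CPM in controls, 17.9 in UIR and 3.09 in UUO, while Lrpap1 was at 113 to 119.7 and Clcn5 at 28.6 to 34.4.

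In the PT-like failed-repair cells Lrp2 had 319, 638 and 386 CPM in UIR and 72.1, 223 and 1053 in UUO. Empty droplets of the same libraries had 412, 211 and 166 CPM in UIR and 111, 43.4 and 103 in UUO, so that in the first library of each injury the droplets without cells were above the PT-like cells. The free-RNA estimate was 68.4% to 100% of the 4 PT-like pools with at least 20 cells, but it counts every PT marker UMI as free, also one of the cells' own. Each Lrp2 value was below that of PT cells in the same library, with ratios of 0.078 to 0.755 and a median of 0.269. Cubn was lower in 5 of 6 libraries with a median ratio of 0.390, the exception being the third UUO library at 172 CPM. Amn did not follow its partner. It was lower in 2 of 6 libraries and had a median ratio of 1.39, with 145, 234 and 199.7 CPM in UIR and 312, 153 and 270.2 in UUO. Dab2 was lower in 3 of 6 (median ratio 0.928), Clcn5 in 4 (0.753), Pdzk1 in 5 (0.705) and Lrpap1 in 5 (0.628). The 0 of Dab2 in the first UUO library comes from 10 cells with 41602 UMIs. Other ratios of that library also rest on few UMIs, PT-like cells against PT: Cubn 1 against 2, Clcn5 1 against 3 and Amn 13 against 6. These ratios compare clusters within libraries and carry no test.

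**Figure D3:**
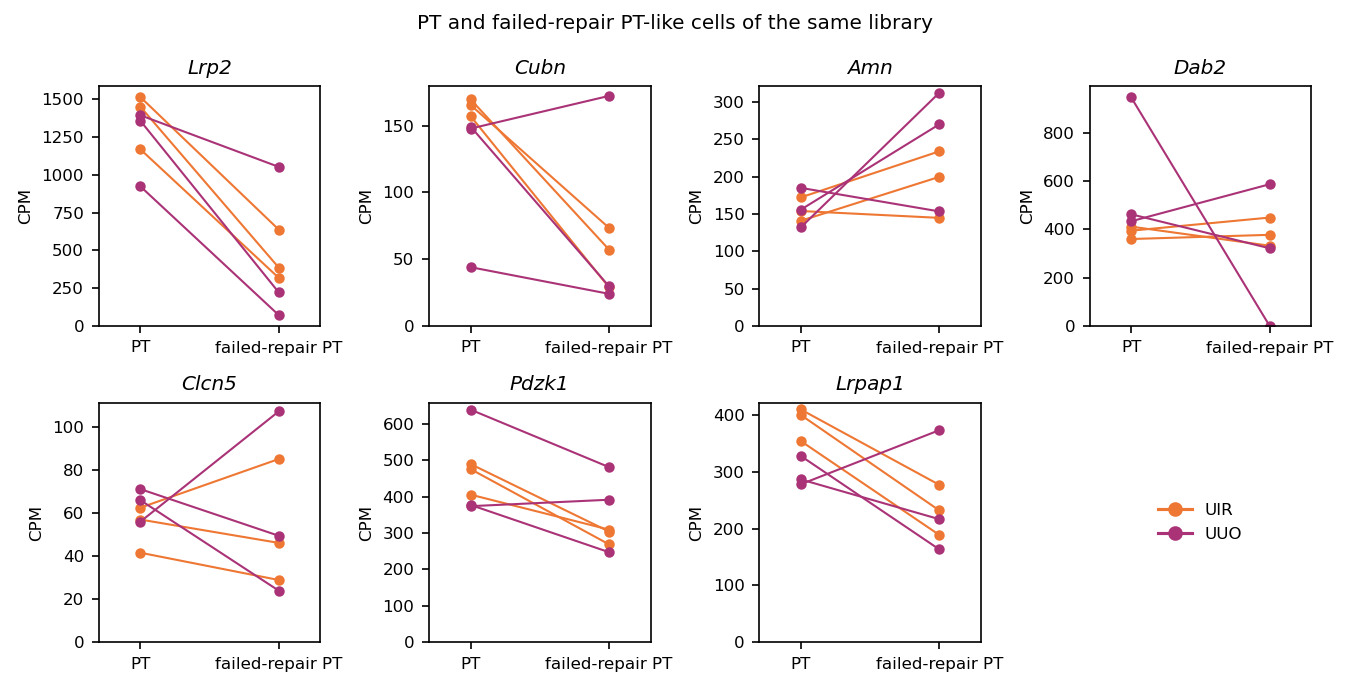
CPM of each member gene (vertical axis) in PT cells and in failed-repair PT-like cells of the same library (horizontal axis), with a line for each of the 3 UIR and 3 UUO libraries. All 6 lines fall for Lrp2, 5 of 6 fall for Cubn, Pdzk1 and Lrpap1, and 4 of 6 rise for Amn.

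Over the class as a whole, UUO and UIR differed in 0 of the 7 members by edgeR, and 0 had an unadjusted p under 0.05. Among all 8702 genes tested there were 0 calls (0% called) and 303 with an unadjusted p under 0.05. These pools mix both sub-clusters in unequal parts: PT-like cells were 29 of 92, 277 of 357 and 62 of 138 in UIR and 10 of 73, 25 of 47 and 15 of 25 in UUO. Lrp2 stood at 38.0, 518 and 186 CPM in UIR and 5.31, 95.002 and 457 in UUO, in the order of the PT-like part within each injury. Only 2 control libraries had 20 such cells, and 0 members were called against them, where the share of genes called was 1.15% for UIR and 1.63% for UUO.

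The highest rise of any member lay outside the proximal tubule. Clcn5, known as the endosomal exchanger of PT, had 145, 291, 307, 144 and 227 CPM in intercalated cells of control kidneys, 1422, 1401 and 1316 in UIR and 1773, 1523 and 1707 in UUO. Every injured library lay far above the highest control. The change was 2.37 on the log2 scale (SE 0.19, adjusted p = 1.33e-08) in UIR and 2.57 (SE 0.19, adjusted p = 1.73e-09) in UUO, a ratio of 5.16 (95% interval 3.99 to 6.67) and 5.92 (4.57 to 7.67). UUO and UIR differed by 0.20 (SE 0.20, adjusted p = 0.77), with an interval of the ratio from 0.872 to 1.51. Of 8310 genes tested in intercalated cells, 5.85% were called higher in UIR and 12% in UUO.

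The rise was seen in separate kinds of intercalated cell. In the sub-cluster highest in Aqp6, a water channel of acid-secreting type A cells, Clcn5 had 135 to 349 CPM in controls, 1671 to 1706 after UIR and 1548 to 1780.2 after UUO. In the sub-cluster highest in Slc26a4, the bicarbonate exchanger pendrin, it had 83.9 to 319 CPM in controls and 721 to 1130.3 in UIR, and no UUO library held 5 such cells. In the remaining, shallower intercalated cells it had 0 to 73.7, 108 to 180.4 and 104 to 1029 CPM. The latter values rest on 0 to 3 UMIs in a control pool, 10 to 17 in a UIR pool and 2 to 7 in a UUO pool. Control pools held only 5 to 23 Aqp6-high and 6 to 10 Slc26a4-high cells. With the Aqp6-high cells alone the changes were 2.22 (adjusted p = 1.97e-08) and 2.18 (adjusted p = 1.48e-08), a choice made after the data had been seen.

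The control pools here were small, with 36 to 57 cells, against 136 to 174 in UIR and 59 to 78 in UUO. Intercalated markers summed to 7151 to 11009 CPM in controls, 6034 to 7934 after UIR and 6353 to 6797 after UUO, so the marker sum did not rise with Clcn5. PT markers fell over the same pools, from 370 to 3033 through 225 to 467 to 32.6 to 66.3 CPM, and principal cell markers from 1374 to 4618 through 1330 to 2412 to 295 to 669. The size of the change moved with the mitochondrial limit, to 5.43 and 5.55 at 15% and 1.89 and 1.83 at 50%.

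**Figure D4:**
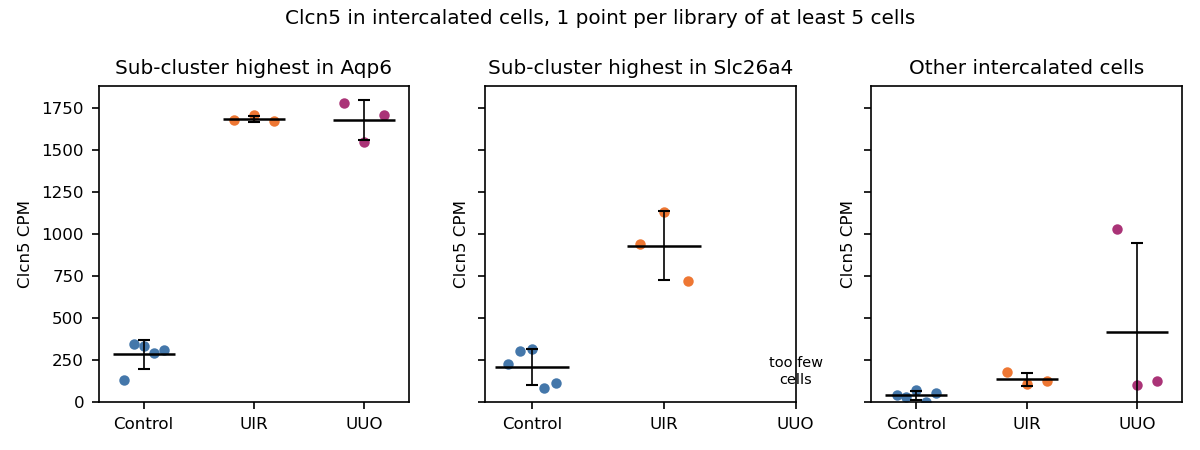
Clcn5 CPM (vertical axis) in 3 sets of intercalated cells (panels) by group (horizontal axis), 1 point per library of at least 5 cells, with the mean and SD. In the Aqp6-high set every UIR and UUO library lies at or above 1548 CPM and every control at or below 349; no UUO library had 5 cells of the Slc26a4-high set.

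Clcn5 was smaller in its changes elsewhere. In loop of Henle it fell, from 55.9 to 68.6 CPM in controls to 40.2, 46.9 and 50.9 in UIR and 35.6, 45.0 and 48.3 in UUO, with no overlap. The changes were -0.67 (SE 0.16, adjusted p = 0.0020) and -0.79 (SE 0.17, adjusted p = 0.00045), and neither was called at a mitochondrial limit of 15%. The groups lay in different sub-clusters here too: the 1 with 306 control and 83 UIR cells had Clcn5 at 55.5 and 33.8 CPM, and the 3 that held the other injured cells had 31.3 to 47.5 in UIR and 14.1 to 46.5 in UUO. In principal cells it rose in UIR, with 82.8, 45.9 and 45.4 CPM against 20.5 to 38.8 (0.73, SE 0.24, adjusted p = 0.035). That call was lost without UIR replicate 1, at 0.36, and without control replicate 1, 3 or 5, at 0.64 to 0.77, at mitochondrial limits of 15% and 50% and at resolution 2. In the sub-cluster that held 228 of the UIR principal cells Clcn5 was at 80.8 CPM, and in the 3 shared with controls it was at 21.9 to 35.5 against 17.5 to 45.0. In distal tubule it was higher in UUO than in UIR, at 92.5, 165 and 47.4 against 34.1, 57.7 and 51.1 CPM (1.05, SE 0.25, adjusted p = 0.049). In the same pools intercalated markers summed to 864, 780 and 313 CPM in UUO and 47.5 to 147 in UIR, and their part in the difference was not tested. This call was lost under 12 of its alternatives, 0.61 without UUO replicate 2 among them.

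Dab2 also changed in distal classes. In intercalated cells it had 248 to 342 CPM in controls, 519, 480.1 and 469.6 in UIR, while UUO pools had 630.2, 552 and 577. The groups did not overlap, with changes of 0.46 (SE 0.13, adjusted p = 0.024) and 0.64 (SE 0.13, adjusted p = 0.00089). Neither was called at mitochondrial limits of 15% or 50%, nor in Aqp6-high cells alone, where the changes were 0.35 and 0.44. The UIR call was also lost without control replicate 4, at 0.39, or without UIR replicate 1 or 2, at 0.40 and 0.47. In distal tubule Dab2 had 1.98 to 14.3 CPM in controls, 33.0, 33.7 and 24.3 in UIR and 29.8, 52.7 and 38.0 in UUO, a rise of 1.56 (SE 0.36, adjusted p = 0.00081) and 1.86 (SE 0.39, adjusted p = 0.00034). At a limit of 50% the UIR change was -0.10 (adjusted p = 0.94). Different sub-clusters made up this class: 1 held 201 control and 25 UIR cells, with Dab2 at 6.68 and 0 CPM, and the other held 277 UIR and 76 UUO cells, with 33.3 and 41.4. In principal cells it fell in UUO, to 67.0, 62.2 and 56.6 CPM from 84.4 to 99.2 (-0.83, SE 0.14, adjusted p = 9.84e-05), while UIR had 131, 106 and 95.6, a change of 0.069 (SE 0.13, adjusted p = 0.77). Control and UUO principal cells lay in different sub-clusters, 4 for controls with Dab2 at 44.1 to 173 CPM and 2 for UUO at 59.4 and 61.9.

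Markers of other cells moved with these values. Dab2 is abundant in macrophages, and the macrophage marker sum rose in intercalated cells from 0 to 11.7 CPM in controls to 25.7 to 41.8 in UIR and 44.0 to 79.0 in UUO, and in distal tubule from 0 to 5.72 to 20.7 to 48.1 and 32.9 to 46.1. Distal tubule pools also lost their own markers, from 3833 to 6683 CPM through 1655 to 1913 to 764 to 1646, and gained principal cell markers, from 4.68 to 295 CPM to 1698 to 2283 and 1204 to 1820. Principal cell pools lost theirs, from 9569 to 17267 through 5939 to 7198 to 1978 to 3239 CPM. The part of these in the Dab2 values was not tested.

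Summed over loop of Henle, distal tubule, principal and intercalated cells, members were called 8 times in UIR and 14 times in UUO, where 26.4% and 35.4% of all tests were called. By class, the share of genes called was 32.8% and 37.9% in loop of Henle, 35.2% and 34.5% in distal tubule, 23.6% and 40.6% in principal cells and 13.4% and 26% in intercalated cells, UIR before UUO. Between UUO and UIR it was 2.88% over the 4 classes, and 2.8%, 0.515%, 4.31% and 3.21% in that order. Of the 28 member and class pairs, 19 passed the filter on low counts. Cubn passed in none of the 4 classes, Amn only in principal cells, and Pdzk1 in loop of Henle and principal cells. In UIR there were 4 calls higher and 4 lower, beside 13.6% and 12.8% of all tests, and in UUO 3 higher and 11 lower, beside 18.2% and 17.2%.

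Of the 15 calls lower, 6 were of Lrp2, which was at trace levels in these classes. Lrp2 in loop of Henle had 18.9 to 59.8 CPM in controls, 12.5, 12.8 and 7.12 in UIR, while UUO pools had 1.82, 0.360 and 1.38. The groups did not overlap, although they lay in different sub-clusters, and the changes were -1.89 (SE 0.33, adjusted p = 7.32e-05) and -5.07 (SE 0.47, adjusted p = 2.74e-09). The sub-cluster of the 306 control cells held 83 UIR cells, and within it Lrp2 was at 37.8 CPM in controls and 31.9 in UIR. Without UUO replicate 1 the UUO change was -5.79. In principal cells Lrp2 had 15.1 to 51.4, 8.44 to 27.2 and 0.404 to 3.31 CPM, and in intercalated cells 9.71 to 68.5, 8.81 to 20.2 and 0 to 4.06. UUO was lower than control in both, at -5.00 (SE 0.61, adjusted p = 4.18e-06) and -3.70 (SE 0.69, adjusted p = 0.00025). Their size moved with single libraries, to -6.32 and -5.38 without UUO replicate 3 and -4.41 and -3.10 without UUO replicate 2, and both stayed called; without control replicate 1 they were -4.78 and -3.26. In distal tubule Lrp2 was at 0 UMIs in all 3 UUO libraries, of 1514651 UMIs, against 54 UMIs in controls, at least 12.9-fold lower with 3 counts in the pooled UUO libraries as the floor. The UIR change in that class was -1.24 (SE 0.38, adjusted p = 0.012). It ran from -1.73 to -0.85 with single libraries left out, and its call was lost under 3 alternatives. Pdzk1 fell in the same way in loop of Henle, from 10.6 to 25.4 CPM to 2.31 to 5.47 in UIR and 0.180 to 1.82 in UUO. The UUO change, -4.37, was -5.45 without UUO replicate 1 and -3.77 without UUO replicate 2.

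The same RNA was also lowest on average after UUO in droplets without cells and in lymphocytes, which should lack the receptors. In empty droplets Lrp2 was at 185 to 1120 CPM in controls, 166 to 412 after UIR and 43.4 to 111 after UUO. Without control replicate 1 the controls were at 185 to 245, inside the UIR range and above every UUO library. In lymphocytes it was at 0 to 86.6 CPM in 4 control pools, 18.7 to 36.96 in UIR and 1.49 to 3.68 in UUO. Without control replicate 1 the control pools had 0 to 63.6 CPM, which covered both injuries. The full range of control lymphocytes covered those of all 4 distal classes in controls. PT markers fell in loop of Henle, from 736 to 2121 CPM through 145 to 389 to 33.1 to 56.9. Most Lrp2 UMIs of the distal classes equalled the amount estimated as free RNA. When the empty-droplet profile was subtracted in proportion to the PT markers, Lrp2 in loop of Henle went from 67 to 10 UMIs in controls, from 270 to 37 in UIR and from 16 to 0 in UUO. In the other 3 classes 66.1% to 81.8% of the Lrp2 UMIs were removed in each group that had any. Calls of members over the 4 classes in UUO fell from 14 to 9. Without control replicate 1, the highest in Lrp2 in empty droplets, the changes in loop of Henle were -1.42 and -4.6025 and both stayed called.

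**Figure D5:**
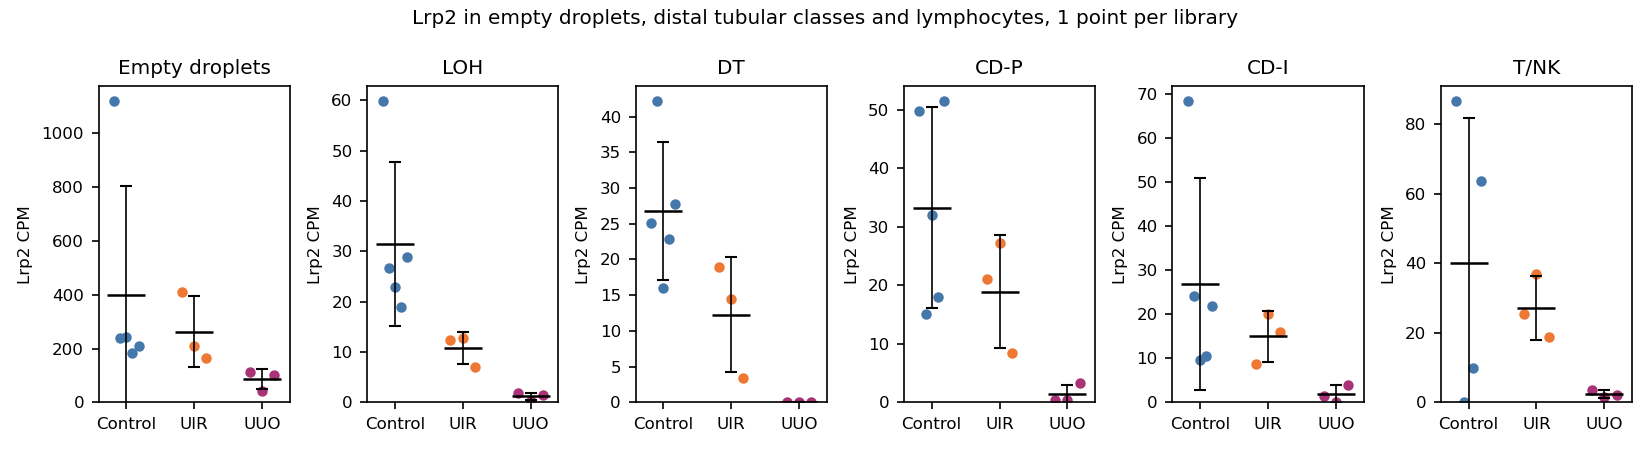
Lrp2 CPM (vertical axes, each with its own scale) in empty droplets, 4 distal tubular classes and lymphocytes (T/NK) by group (horizontal axis), 1 point per library with the mean and SD. The UUO mean is the lowest in all 6 panels, cell-free droplets included; in empty droplets 4 of 5 controls lie within the UIR range, and UUO distal tubule is at 0 in all 3 libraries.

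The wider pathway in PT was followed through 125 genes in 5 lists, of which 122 passed the filter. In UIR 13 were called higher and 6 lower, or 15.6% where 13.9% of all genes were, and in UUO 1 higher and 5 lower, or 4.92% where 4.49% were. Both shares are near the background. With the empty-droplet profile subtracted, 5 were called in UIR and 0 in UUO. Genes of the lysosome, where cargo is broken down, held 8 of the 13 higher calls in UIR: 8 of 22 were higher and 1 lower, with a median change of 0.36 beside -0.0024 over all genes. Npc2, which moves cholesterol out of lysosomes, rose from 79.5 ± 2.96 CPM to 121 ± 6.92 (0.64, SE 0.11, adjusted p = 0.00031), and the cathepsins Ctsz and Ctsb rose by 0.57 (adjusted p = 0.0017) and 0.41 (adjusted p = 0.020). Npc2 and Ctsz stayed called after the subtraction, and Ctsb was lost (0.28, adjusted p = 0.35). The most abundant of the list, Cd63 and Lamp1, had changes of 0.54 (adjusted p = 0.060) and 0.37 (adjusted p = 0.091), which did not pass. In UUO 1 lysosomal gene was called higher. Lysosomal genes are also strong in macrophages, whose markers rose in UIR PT as given above. Without the sub-cluster highest in those markers, 10 of the genes in the 5 lists were called in UIR, and in S1-like cells alone 3 were.

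In the other lists the shares are again read beside 13.9% of all genes in UIR and 4.49% in UUO. Of 37 genes for the clathrin coat, adaptors and endosomes, 1 was called higher and 1 lower in UIR (5.41%) and 0 in UUO. Clta, a clathrin light chain, had 279 ± 18.1 CPM in controls and 301 ± 38.9 in UIR (0.14, SE 0.12, adjusted p = 0.48), and the motor Myo6 had 209.6 ± 19.8 and 207 ± 24.5 (0.019, SE 0.12, adjusted p = 0.96). Of 22 genes of endosomal acidification, the same 2 were lower in both injuries (9.09%), Clcn6 and Atp6v1b2. The proton pump subunit Atp6v1b2 fell by 0.35 (SE 0.11, adjusted p = 0.029) in UIR and by 0.65 (SE 0.17, adjusted p = 0.025) in UUO, comparisons that share their controls. Its UUO libraries ran from 99.6 to 220.1 CPM, the highest above every control (163 to 182). After subtraction neither change of Atp6v1b2 was called, with -0.29 (adjusted p = 0.16) and -0.61 (adjusted p = 0.13). The more abundant pump subunits Atp6v1g1 and Atp6v1e1 did not pass, at -0.45 (adjusted p = 0.12) and -0.46 (adjusted p = 0.12) in UUO.

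Among 18 brush border partners 2 were higher and 2 lower in UIR (22.2%), and 2 lower in UUO (11.1%). The phosphate transporter Slc34a1, a Pdzk1 partner, had 2781 ± 164 CPM in controls and 1831 ± 270.1 in UUO, a fall of 0.86 (SE 0.18, adjusted p = 0.0068), and 2083 ± 146 in UIR (-0.38, SE 0.17, adjusted p = 0.16). Pdzk1ip1, a small membrane protein that binds Pdzk1, had 536 ± 41.0 and 694 ± 162 CPM in controls and UUO (0.030, SE 0.14, adjusted p = 0.96). Of 23 other receptors and vitamin-handling genes tested, 2 were higher in UIR (8.70%) and 1 lower in UUO (4.35%). Tcn2, the carrier of vitamin B12 that megalin takes up, fell from 529.8 ± 34.2 CPM to 302 ± 89.8 in UUO (-0.88, SE 0.19, adjusted p = 0.0068), and the folate receptor Folr1 had 415 ± 22.6 and 449 ± 110.4 (-0.066, SE 0.17, adjusted p = 0.91). For Folr1 the mean CPM and the fitted change, which is on the TMM scale, thus ran in opposite directions. The UUO calls of Slc34a1 and Tcn2 were lost after subtraction, at -0.73 (adjusted p = 0.12) and -0.76 (adjusted p = 0.082).

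Over 37 combinations of class and group, genes among the most like Lrp2 by Pearson correlation of log2 levels, of 2421 genes, were Keg1 (0.987), Acsm2 (0.984), Glyat (0.983) and Cyp2j5 (0.981). Those most like Cubn were Slc7a9, a cystine carrier of the brush border (0.959), Mettl7b (0.955), Abcc2 (0.954), Timd2 (0.954) and Slc22a28 (0.950). Among the members, Pdzk1 was nearest to Lrp2 (0.947), then Amn (0.927), Cubn (0.923), Lrpap1 (0.650), Dab2 (0.366) and Clcn5 (0.131). These points share libraries and free RNA, and the values only describe how alike the patterns are.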

How the data were processed

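Single-cell libraries of 11 mouse kidneys were deposited as raw UMI counts per gene and barcode, empty droplets included; the authors made them with Cell Ranger 3.1.0 on mm10, per the file headers and the submitters' processing notes, while the study's methods name a later version. Their correction for free RNA and their doublet calls are not in these counts. Cells were called against the profile of barcodes at ranks 45000 to 90000 (at least 500 UMIs, 10000 simulations, false discovery rate 0.01). Kept cells had at most 30% mitochondrial and 5% hemoglobin UMIs and at least 200 genes, and the 7.5% with the highest doublet scores were removed. Leiden clusters (leidenalg 0.10.2, resolution 1, 20 neighbors, 40 components, 2000 variable genes without the members, list genes and markers) were named from marker lists, and the naming rule was revised after the marker tables of the clusters had been seen. Barcodes shared between libraries numbered 0 to 17 a pair.

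Counts were summed per library and class (at least 20 cells; 10 for PT segments and failed-repair PT-like cells, 5 for intercalated sub-clusters) and tested with edgeR 4.0.16 (quasi-likelihood, TMM, its low-count filter, all 3 groups in 1 model) over all genes, with Benjamini-Hochberg adjustment at 0.05. Adjusted p-values are from these fits, and they measure the spread between libraries. Shares were compared by exact permutation tests over libraries, two-sided. Intervals of fitted ratios are 95% by a normal approximation from the SE, which is narrow for so few libraries. For Dab2 in UIR PT the interval ended at 0.9955 although the unadjusted edgeR p was 0.057. Floors of 3 counts cover counting error only. In simulated data the changes were set in UIR only and tested against control, so recovery in the far smaller UUO PT pools was not measured. For PT (11341 genes) 81% of 2-fold and 100% of 4-fold changes were recovered. Loop of Henle (11538 genes) gave 61.2% and 91%, and intercalated cells (8310 genes) 76.3% and 100%. Of the calls, 5.24%, 2.58% and 7.61% were false. Alternatives were DESeq2 1.42.0, no filter, library totals, pairs of groups, a replicate block, subtraction of empty-droplet RNA, other limits and resolution, and each library left out. The genes named from each list were up to 3 per direction with the largest called change, every injured library outside the control range and a mean of 50 CPM or more where higher, and up to 2 of the most abundant. The members and lists were chosen with earlier results of these data known. UIR and UUO libraries share replicate numbers, and the deviations of same-numbered libraries from their group means were correlated. The correlations were 0.38 to 0.81 in loop of Henle, 0.17 to 0.63 in principal cells and 0.10 to 0.54 in intercalated cells. In distal tubule they were 0.33, 0.20 and -0.26, and in PT 0.038, 0.10 and -0.090. Nothing in the labels says what a number marks. A result of the comparison of patterns with Lrp2 is not reported here.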

Additional observations from a re-analysis of the deposited data

Results flagged for a closer look

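Control replicate 1 stood apart from the other 4 control libraries in 9 of the 34 control groups examined. The gap used is one that chance gives in about 1 of 20 groups. These groups are not independent, as all members in its empty droplets come from 1 profile, so the count of 9 is not set against that rate. Its empty droplets held 1120 CPM of Lrp2, 144.3 of Cubn, 138.3 of Amn, 309.4 of Dab2, 81.98 of Clcn5, 312.5 of Pdzk1 and 302.0 of Lrpap1. Its Lrp2 was also highest in loop of Henle, at 59.84 CPM, and in intercalated cells, at 68.48 CPM.

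The fitted difference between UUO and UIR passed the threshold by edgeR for 7 pairs of gene and class. All lay in the 4 distal classes, where 2.88% of all tests were called. Lrp2 was lower in UUO in all 4 distal classes, by a log2 difference of -3.179 in loop of Henle, -3.932 in principal cells and -2.819 in intercalated cells. With single libraries left out these ran from -3.86 to -2.63, -5.25 to -3.34 and -4.50 to -2.23. In distal tubule UUO had no Lrp2 UMI and was at least 6.711-fold lower than UIR, with 3 counts over the UUO libraries as the floor. Most Lrp2 UMIs of the distal classes equalled the free-RNA estimate. In loop of Henle its subtraction removed 86.3% of them in UIR and 100% in UUO. Pdzk1 in loop of Henle differed by -1.941 and Dab2 in principal cells by -0.8991. Clcn5 in distal tubule was higher in UUO, by 1.054. Several of these calls were fragile. That of Pdzk1 was lost under 9 alternatives, among them without UIR replicate 1 or 2 or UUO replicate 2 or 3, and ran from -2.98 to -1.31 with single libraries left out. That of Clcn5 was lost under 12. Those of Lrp2 were lost under 4 in distal tubule (without UIR replicate 1, UUO replicate 1 or 2 among them), 5 in intercalated cells (without UIR replicate 2 or 3, UUO replicate 1 or 2 among them) and 1 in principal cells.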

How the results depend on the processing

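The rise of Clcn5 in intercalated cells kept its direction and its call under all 22 alternatives in each injury, as did the fall of Lrp2 in loop of Henle under all 21, although 0 UUO and 10 control UMIs were left to compare after subtraction of empty-droplet RNA. In PT the calls were fragile. In UIR 0 members were called without the low-count filter, with library totals, with the replicate block, at mitochondrial limits of 15% and 50%, at resolution 2, without the sub-cluster with macrophage RNA and in S1-like cells, and 0 to 1 with single libraries left out. In UUO 2 were called by DESeq2 and at a limit of 50%, 4 without the filter, and 0 with library totals, with only the 2 groups compared, with the replicate block, with empty-droplet RNA subtracted, at a limit of 15%, with at least 1000 UMIs and without that sub-cluster, and 0 to 1 with single libraries left out. Under the replicate block Amn in UIR stood at 0.39 (adjusted p = 0.053) and Pdzk1 in UUO at -0.56 (adjusted p = 0.055) by edgeR.

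Calls in distal classes fell from 8 to 4 in UIR at a limit of 15%, and from 14 to 9 in UUO both there and after subtraction; single libraries left out gave 6 to 9 and 12 to 15. List genes called in UIR PT went from 19 to 5 after subtraction, 7 at 15%, 10 without the sub-cluster and 3 in S1-like cells (7 to 22 with single libraries left out), and in UUO from 6 to 10 by DESeq2, 11 without the filter, 0 after subtraction and 3 without the sub-cluster (3 to 10, with 10 without UUO replicate 1 and 3 without UUO replicate 3). The choices of sub-cluster were made after seeing the data, and the cause of these shifts was not tested.

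The Lrp2 share in PT differed by -21.0 to -14.4 percentage points in UIR and -49.1 to -35.6 in UUO with single libraries left out, where the design cannot reach the threshold. Without thinning, PT cells with an Lrp2 UMI differed by -22.5 points in UUO and with a Cubn UMI by -14.4 in UIR. Cubn in UUO differed by -1.32 at a limit of 50%, -5.31 at resolution 2, and -7.70 to -4.46 with single libraries left out. Direction turned for Amn in UIR PT in S1-like cells (-0.10), Dab2 in UIR distal tubule at 50% (-0.10) and Lrpap1 in UUO intercalated cells at 15% (1.91). Thinning to 2000 UMIs gave no value in UUO. UUO PT pools held 31 to 96 cells, which limits their precision.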

Other observations

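Macrophages carried Dab2 in every group. Control libraries had 219 to 400 CPM there. UIR libraries stood at 443, 509 and 454 CPM and UUO libraries at 440.1, 407 and 516 CPM. Every injured library lay above the highest control, 400, though the lowest of them, 407, only slightly. Macrophages were not fitted, so this difference has no test and no share of all genes beside it.

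Some sub-clusters could not be named and still held members. A sub-cluster led by Tagln, Tnc and Cp had Lrp2 at 52.1 CPM over 183 UIR cells and 21.7 CPM over 85 UUO cells. A UUO sub-cluster of 57 cells with a median of 1164 UMIs had Clcn5 at 999 CPM and no Lrp2 UMI, and another held 104 UUO cells with Clcn5 at 338 CPM and Lrp2 at 18.04 CPM and 675 UIR cells with 42.9 and 208 CPM.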
